A study of Arabidopsis thaliana with 30 samples.

Results

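In cut hypocotyls of Arabidopsis thaliana, 200 transcripts were chosen because their abundance in the Col-0 wild type fell within hours of cutting and was back near its starting level a day later. They are 200 of the 36635 rows of the count table, each row taken as 1 transcript feature. Abundance was measured in CPM, the reads of a row divided by all reads counted in its library and scaled to 1000000, and a change was the difference from 0 h in log2(1 + the mean CPM of 3 libraries). A row was eligible with at least 10 CPM at 0 h, a change of -1 or lower at 1 or 3 h, and a change of less than 0.5 in either direction at 24 h. These thresholds were met by 430 rows, and the 200 with the lowest single change were kept. All values used for the choice came from the 15 wild-type libraries, so the wild-type values of the 200 rows are a description and carry no test. The 15 libraries of the hsfa1abd-2 mutant were not used for the choice, and the tests are made in them.

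The seedlings of both genotypes, in the Col-0 ecotype, were grown for 7 days in the dark on MS medium, and their hypocotyls were cut with a scalpel. About 50 explants made up a replicate, and whole tissue was taken at 0, 0.5, 1, 3 and 24 h, with 3 biological replicates per genotype and time, 30 libraries in 10 groups in all. The controls of every comparison over time, the explants at 0 h, also carry the label for wounding, and no uncut explants were analysed here. The effect of cutting and that of the hour of the day cannot be told apart, nor, at 24 h, can cutting and the ageing of the tissue. The mutant is given by its name only, and no rescued line was analysed here.

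The hypocotyl is the stem of the seedling below its cotyledons, and in the dark it grows by elongation of its cells. Cutting sets off wound signalling within minutes, with a rapid rise of some transcripts and a fall of others, and wounded hypocotyls can go on to form callus and new organs. The HSFA1 proteins are heat shock transcription factors of class A that act as master regulators of the heat stress response. A transcript becomes less abundant when its breakdown outpaces its synthesis, and a count of reads does not separate these processes. In whole tissue, fewer cells holding a transcript and less of it in each cell cannot be told apart either.

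None of the rows comes with a gene identifier. No name, gene family, marker of another cell type or sequence could therefore be matched to any of the 200 rows, the hypocotyl label could not be checked against markers, and the levels of the HSFA1 genes could not be read. For 4 rows the position in the table, starting at 1 for the first row of data, serves as a name, and others are described by the place they hold in the set. Library totals ran from 3164714 to 4296509 counts, apart from the wild-type replicate 1 of 0.5 h with 578179, 16.1% of the median. At the median depth 10 CPM stood for 36.0 counts, and in that shallow library for 5.78. Without it 195 of the 200 rows would still have been chosen. Summed over the 3 mutant libraries of a group, a chosen row had a median of 294 counts at 0 h and 111 at 3 h, and none was without counts in any mutant group. The lowest sum was 6 counts at 1 h and 10 counts at 3 h.

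At 0 h the 200 transcripts were of middling abundance. Their median was 25.01 CPM in the wild type, with a range from 10.04 to 335, and 26.3 CPM in hsfa1abd-2, with a range from 6.94 to 359. The wild-type median went to 15.3 CPM after 0.5 h, 10.99 after 1 h, 9.46 after 3 h and 26.2 after 24 h. In hsfa1abd-2 it was 14.96, 11.5, 10.7 and 24.16 CPM at the same times. Expressed as a ratio of 1 + mean CPM to its value at 0 h, the median row of the mutant was at 0.624 after 0.5 h. It was at 0.482 after 1 h, 0.433 after 3 h and 0.858 after 24 h. In the wild type, where the choice fixed the pattern, these ratios were 0.605, 0.416, 0.372 and 0.953.

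**Figure D1:**
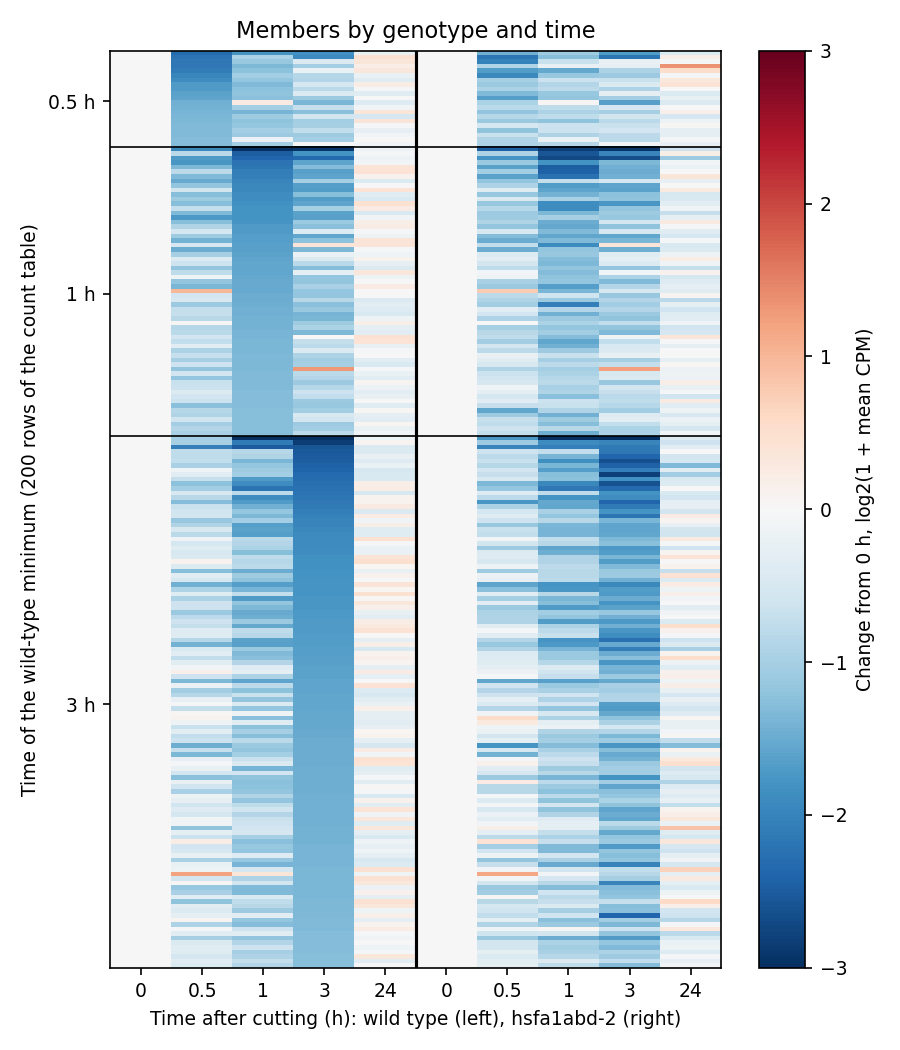
Change from 0 h of each of the 200 chosen rows (log2 of 1 + mean CPM, rows down, times across) in the wild type and in hsfa1abd-2, with rows grouped by the time of their wild-type minimum. Falls at 0.5, 1 and 3 h and levels nearer to 0 at 24 h are seen in both panels, and only the wild-type panel was used for the choice.

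The fall was present in each mutant library. The median change of the 200 rows was -0.73, -0.65 and -0.74 in the 3 mutant libraries at 0.5 h, on the log2(1 + CPM) scale, with a mean of -0.707 ± 0.0513 (SD, n = 3). It was -1.13, -1.001 and -1.08 at 1 h, with a mean of -1.069 ± 0.063 (SD, n = 3), and -1.24, -1.20 and -1.30 at 3 h, with a mean of -1.245 ± 0.0496 (SD, n = 3). All 9 of these libraries lay below the 3 mutant libraries at 0 h, which stood at 0.09, -0.06 and -0.02. At 24 h the medians were -0.17, -0.27 and -0.23, above every library at 0.5, 1 and 3 h and below every library at 0 h. The wild-type libraries gave -0.77, -0.68 and -0.82 for 0.5 h, -1.28, -1.22 and -1.25 for 1 h, -1.39, -1.39 and -1.48 for 3 h, and -0.04, -0.03 and -0.15 for 24 h. The libraries of the genotypes overlapped at 0.5 h and did not overlap at 1, 3 or 24 h. No p-value is given for these medians, since the rows were chosen for their wild-type course.

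The scale itself moved with time. Over the 12315 rows with at least 10 CPM at 0 h in the wild type, the median change in CPM was -0.22, -0.30, -0.27 and -0.14 in the wild type at 0.5, 1, 3 and 24 h, and -0.16, -0.26, -0.22 and -0.03 in the mutant. TMM, which scales libraries by the bulk of their rows, removes most of this shift. The median CPM change of those rows minus their median TMM fold was -0.13, -0.21, -0.22 and -0.12 in the wild type. In the mutant this difference was -0.12, -0.22, -0.18 and -0.05. Every test below is on the TMM scale, where the 200 rows had a median log2 fold in the mutant of -0.59 after 0.5 h, -0.88 after 1 h, -1.10 after 3 h and -0.19 after 24 h. The medians over all 18526 tested rows were -0.03, -0.01, -0.00 and 0.07.

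**Figure D2:**
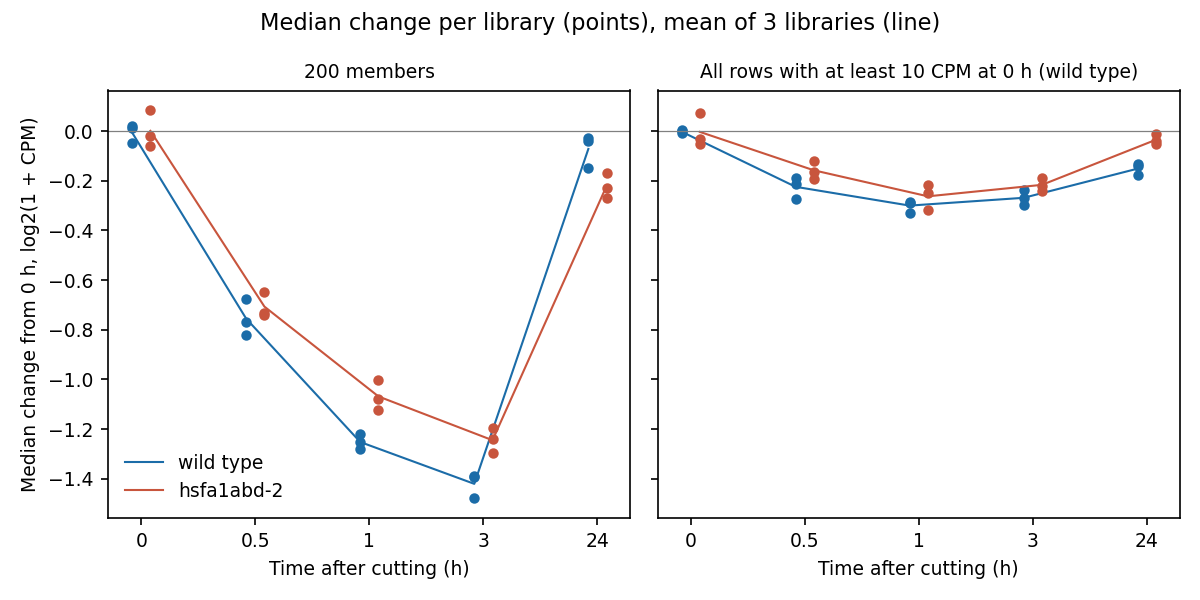
Median change from 0 h over the 200 chosen rows in each library (vertical axis, log2 of 1 + CPM against the mean of the 3 libraries at 0 h of the same genotype), by time after cutting and genotype; each point is 1 library. All mutant libraries at 1 and 3 h lie between -1.30 and -1.001, and those at 24 h between -0.27 and -0.17.

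In the mutant libraries 107 of the 200 rows fell by 0.5 h (edgeR quasi-likelihood test, Benjamini-Hochberg adjusted p under 0.05 over all tested rows), against 8.30% of all tested rows and 10.3% of those with at least 10 CPM at 0 h in the mutant. By 1 h 162 rows had fallen, against 15.1% of tested rows and 18.5% of the more abundant ones. By 3 h the number was 170, against 18.6% and 22.6%. Called falls of at least 1 on the log2 scale numbered 49 at 0.5 h, 86 at 1 h and 120 at 3 h. The share of all tested rows with a called fall of this size was not counted, so these numbers are a description. Rises were few. Of the 200 rows 3 rose by 0.5 h, where 13.2% of the rows with at least 10 CPM did, and 2 rose by 3 h, where 23.0% did. At 1 h 0 rows rose by edgeR, where 18.6% did, and DESeq2 also gave 0, as did edgeR at an unadjusted p under 0.05.

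A separation was also seen without a model, in CPM without TMM scaling. On that scale the bulk of rows moved down, which raises the background too. The 3 mutant libraries at the later time all lay below the 3 at 0 h in 139 of the 200 rows at 0.5 h, where 23.4% of tested rows did so. The number was 187 at 1 h, where the background was 38.2%, and 186 at 3 h, where it was 32.7%.

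Most of the rows were called lower in the mutant at some point. A fall at 1 or 3 h was called in 191 of the 200 rows, against 23.3% of tested rows. Of these, 141 were called at both times, against 10.3%, and 86 were called at 0.5, 1 and 3 h, against 4.35%. The 9 rows with no called fall at 1 or 3 h still had a negative change in the mutant. Their lower change lay between -0.76 and -0.26, with a median of -0.67, and they were of low abundance, with a median of 12.0 CPM at 0 h in the wild type beside 27.7 CPM for the other 191.

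**Figure D3:**
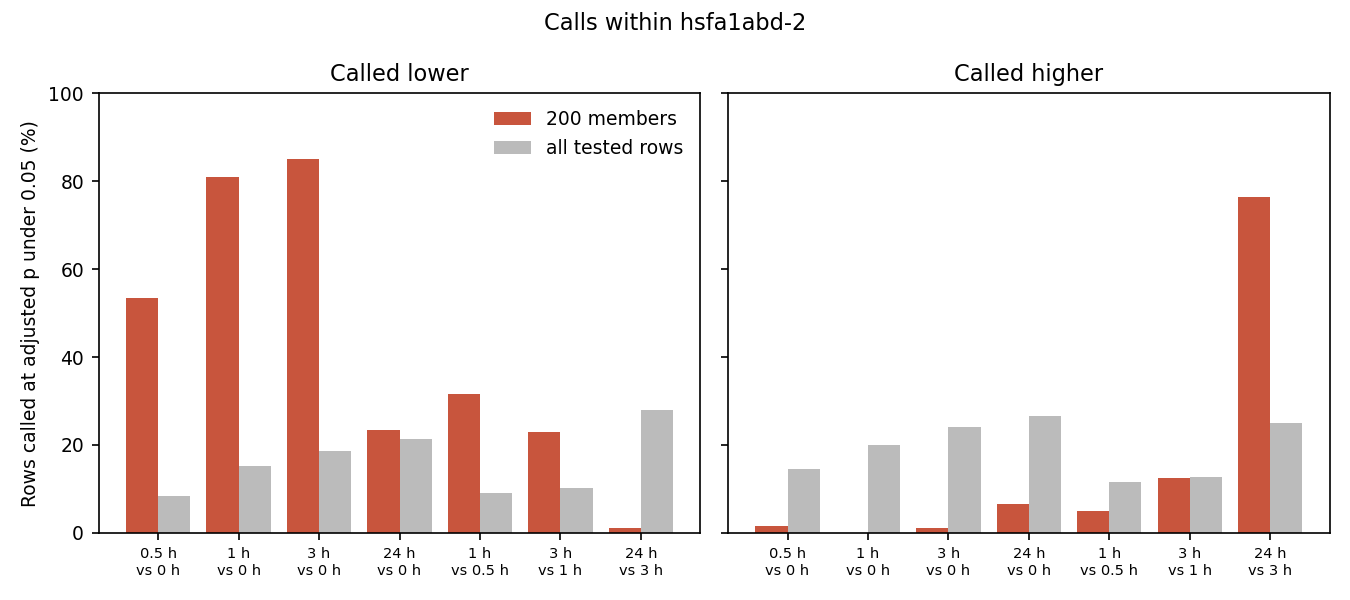
Share of the 200 chosen rows called lower or higher in hsfa1abd-2 (percent, edgeR, adjusted p under 0.05) beside the share of all 18526 tested rows, for each time against 0 h and for the steps between neighbouring times. Falls were called in 162 rows at 1 h and 170 at 3 h, and rises from 3 to 24 h in 153.

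When the thresholds of the choice were put to the mutant means, 164 of the 200 rows (82.0%) had a change of -1 or lower at 1 or 3 h, against 11.2% of the 12315 rows with at least 10 CPM at 0 h in the wild type. All 3 thresholds, with the starting level and the return, were met by 119 of the 200 (59.5%), against 2.99% of those rows. Of the rows that fell by at least 1 in the mutant, 35 were 0.5 or more below their starting level at 24 h and 4 were 0.5 or more above it. The 36 rows whose fall stayed short of 1 mostly came close, since 24 of them fell by at least 0.75 at 1 or 3 h.

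The wild-type and mutant changes of the 200 rows went together row by row. Across the 200 rows Pearson's r between the genotypes was 0.804 for the change to 0.5 h, 0.782 to 1 h, 0.869 to 3 h and 0.58 to 24 h. These are descriptions with no p, since rows are not independent, each genotype's 4 changes share its libraries at 0 h, and the wild-type values were chosen. The mutant's change lay above the wild type's in 115 rows at 0.5 h, 125 at 1 h and 137 at 3 h, with a median gap of 0.06, 0.13 and 0.16. At 24 h it lay above in 63 rows only, with a median gap of -0.15. Rows selected for a deep fall and a close return in one genotype are expected to show a shallower fall and a looser return in another set of libraries even where the genotypes do not differ, so nothing is read from these gaps.

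**Figure D4:**
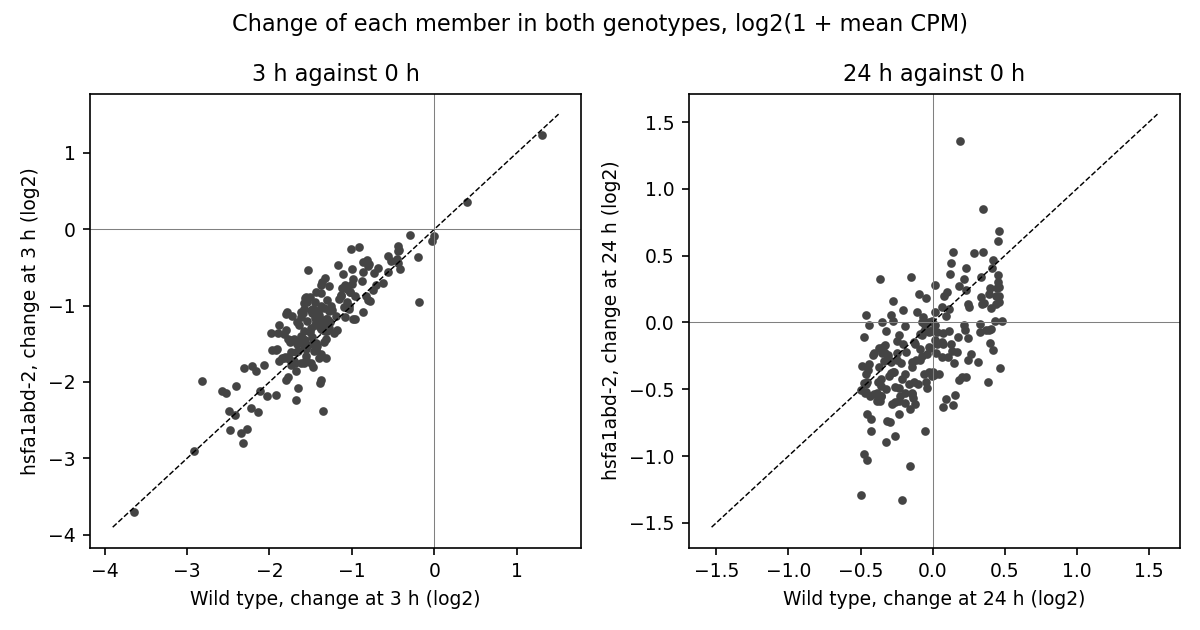
Change from 0 h in hsfa1abd-2 (vertical axis) against the change in the wild type (horizontal axis) for the 200 chosen rows, both as log2 of 1 + mean CPM, with 1 panel per time and a line of equality. At 3 h 137 rows lie above the line, and at 24 h 63 do.

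The transcripts did not all reach their lowest level at the same time. In the wild type the lowest level came at 0.5 h in 21 rows, at 1 h in 63 and at 3 h in 116. In the mutant it came at those times in 22, 57 and 121 rows, and 159 rows (79.5%) had their minimum at the same time in both genotypes. The wild-type classes are used below to order the mutant libraries, which had no part in forming them.

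The 21 rows with a wild-type minimum at 0.5 h had median changes in the mutant of -1.10, -0.86, -0.78 and -0.05 at 0.5, 1, 3 and 24 h. In the mutant 17 of them were called lower at 0.5 h, 13 at 1 h and 12 at 3 h. At these times 8.30%, 15.1% and 18.6% of tested rows were called lower. Their upward turn was early, with 6 called higher and 0 lower from 0.5 to 1 h, a step in which 11.6% of tested rows rose and 8.95% fell. A further rise from 3 to 24 h was called in 13 of the 21, where 24.9% of tested rows rose. At 24 h 2 were lower and 3 higher than at 0 h, where 21.3% of tested rows were lower and 26.6% higher. In 15 of the 21 rows the mutant minimum also came at 0.5 h.

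The 63 rows with a wild-type minimum at 1 h had mutant medians of -0.78, -1.28, -0.94 and -0.22. Falls from 0 h were called in 41 of them at 0.5 h, in 60 at 1 h and in 45 at 3 h, beside 8.30%, 15.1% and 18.6% of tested rows. From 0.5 to 1 h 23 were called lower and 2 higher, where 8.95% of tested rows fell and 11.6% rose. From 1 to 3 h 22 were called higher and 2 lower, where 12.8% of tested rows rose and 10.1% fell. A rise from 3 to 24 h was called in 39, where 24.9% of tested rows rose. At 24 h 13 of the 63 were called below their starting level and 1 above it, beside the same 21.3% and 26.6%. The lower calls were near that background, and the higher ones were below it.

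The 116 rows with a wild-type minimum at 3 h fell in steps. Their mutant medians were -0.54, -0.97, -1.44 and -0.23, and falls from 0 h were called in 49, 89 and 113 rows at 0.5, 1 and 3 h. The shares of all tested rows with such a call were 8.30%, 15.1% and 18.6%. From 0.5 to 1 h 40 were called lower, where 8.95% of tested rows fell. From 1 to 3 h 41 were called lower and 0 higher, where 10.1% fell and 12.8% rose. From 3 to 24 h 101 of the 116 were called higher, where 24.9% of tested rows rose. At 24 h 32 of the 116 were called below and 9 above their starting level. Of all tested rows 21.3% were below and 26.6% above. Of those with at least 10 CPM at 0 h in the mutant 25.2% and 26.5% were. The lower calls were near the background of the more abundant rows, and the higher calls were below both backgrounds. Over all 200 rows the step from 0.5 to 1 h gave 63 falls and 10 rises, where 8.95% of tested rows fell and 11.6% rose. The step from 1 to 3 h gave 46 falls and 25 rises, where 10.1% fell and 12.8% rose. The 25 rises (12.5%) were near that background.

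The return between 3 and 24 h was called in 153 of the 200 rows in the mutant, against 24.9% of tested rows and 27.3% of those with at least 10 CPM. Only 2 rows were called lower in that step, against 28.0%. The median log2 fold from 3 to 24 h was 1.00 for the chosen rows and -0.01 for all tested rows. In CPM without TMM scaling, the 3 mutant libraries at 24 h all lay above the 3 at 3 h in 165 rows, where 34.7% of tested rows did so. A rise after a low point is partly a matter of where a row starts, since a row that was low at 3 h enters this comparison with that same group of libraries.

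Set together, 150 of the 200 rows were called lower at 1 or 3 h and higher from 3 to 24 h in the mutant, against 9.19% of tested rows. In 109 of these no difference from 0 h was called at 24 h, against 5.63%. Another 30 were still called lower than at 0 h, against 0.961%, and 11 were called higher than at 0 h, against 2.60%. A further 39 rows were called lower at 1 or 3 h with no call from 3 to 24 h, where 10.2% of tested rows had this course. A missing call at 24 h does not show that a level had returned in full.

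Against 0 h itself, 47 of the 200 rows were called lower in the mutant at 24 h, where 21.3% of tested rows were and 25.2% of those with at least 10 CPM. The chosen rows' 23.5% is near that background. Another 13 were called higher, where 26.6% of tested rows and 26.5% of the more abundant ones were. The 13 fell to 5 without replicate 3 of the mutant at 24 h and to 8 without replicate 1 or replicate 3 of the mutant at 0 h. Only 3 of the 47 lower rows differed by 1 or more on the log2 scale. On the scale of the choice, 154 of the 200 rows were within 0.5 of their starting level in the mutant at 24 h, 39 were at least 0.5 below it and 7 at least 0.5 above it. A call of lower at 24 h with no called rise from 3 to 24 h was made in 17 of the 200 rows (8.5%), against 20.3% of tested rows.

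The deepest fall in the mutant was that of row 21913, which also had the deepest minimum of the 200 in the wild type. In the mutant it was at 22.9, 25.3 and 24.4 CPM at 0 h, at 8.58, 6.56 and 4.26 at 0.5 h, at 0.632, 1.97 and 3.35 at 1 h, and at 1.65, 0.296 and 0.868 at 3 h. After 24 h it held 21.4, 16.3 and 14.9 CPM. The mutant libraries at 0.5, 1 and 3 h all lay below those at 0 h, and those at 24 h also lay below them, by less. The log2 fold against 0 h in the mutant was -1.77 (SE 0.29, edgeR adjusted p = 1.09e-05) at 0.5 h, -3.35 (SE 0.36, adjusted p = 3.18e-09) at 1 h and -4.43 (SE 0.41, adjusted p = 8.48e-11) at 3 h. Without replicate 1 of the mutant at 3 h the fold at 3 h was -5.11, and without replicate 2 it was -4.03. From 3 to 24 h the fold was 4.02 (SE 0.42, edgeR adjusted p = 1.8e-09), and at 24 h against 0 h it was -0.41 (SE 0.25, edgeR adjusted p = 0.174). The same row in the wild type went from 30.3, 27.9 and 29.7 CPM at 0 h to 1.92, 1.86 and 0.502 after 3 h, and to 34.9, 23.1 and 22.2 after 24 h.

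Row 20503 had the next lowest fold in the mutant and reached it at 1 h. Its mutant libraries held 7.72, 9.19 and 8.61 CPM at 0 h, 4.74, 4.38 and 2.84 at 0.5 h, 0.948, 0.846 and 0 at 1 h, 2.19, 1.77 and 0.289 at 3 h, then 10.5, 8.39 and 10.5 after 24 h. The libraries at 1 and 3 h lay far below those at 0 h, and those at 24 h overlapped with them. The log2 fold in the mutant was -3.52 (SE 0.56, edgeR adjusted p = 4.8e-06) at 1 h, a value resting on few counts, and -2.35 (SE 0.46, adjusted p = 8.12e-05) at 3 h. It was -2.97 at 1 h without replicate 3 of the mutant. The rise from 3 to 24 h was 2.61 (SE 0.45, edgeR adjusted p = 1.01e-05). The wild-type libraries held 26.0, 13.7 and 15.9 CPM at 0 h and 3.7, 1.76 and 2.01 CPM at 1 h. It was 1 of the 2 chosen rows that were called lower in the mutant than in the wild type at 0 h, by a log2 fold of -1.14, in a contrast that includes the libraries used for the choice.

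At the other end, 2 rows had no called fall in the mutant at 1 or 3 h and the smallest folds there. Row 35253 was at 17.6, 15.2 and 18.1 CPM in the mutant at 0 h, at 5.33, 4.38 and 15.9 at 0.5 h, at 5.69, 20.3 and 17.1 at 1 h and at 11.8, 18.3 and 11.9 at 3 h. The mutant libraries at 1 and 3 h overlapped with those at 0 h, and the log2 fold was -0.09 at 3 h (SE 0.36, edgeR adjusted p = 0.861). At 24 h it was at 35.1, 48.5 and 51.6 CPM, above all earlier mutant libraries, a log2 fold of 1.45 against 0 h (SE 0.32, edgeR adjusted p = 0.000583) and the highest change at 24 h among the 200. Its wild-type libraries held 9.27, 10.1 and 16.7 CPM at 0 h, then 0, 2.9 and 2.97 after 0.5 h and 3.84, 7.45 and 5.02 after 3 h. The wild-type library at 0 is the shallow one, in which the row had no count.

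Row 31062 was at 7.47, 10.05 and 7.46 CPM in the mutant at 0 h, at 6.64, 5.64 and 9.45 at 1 h, at 5.48, 5.62 and 5.21 at 3 h and at 10.2, 4.72 and 5.95 at 24 h. Only the libraries at 3 h lay wholly below those at 0 h, and the log2 fold there was -0.42 (SE 0.29, edgeR adjusted p = 0.262). At 1 h it was 0.03 (SE 0.28, edgeR adjusted p = 0.954). Wild-type levels were 8.65, 8.76 and 12.7 CPM at 0 h and 1.65, 3.49 and 3.27 CPM at 3 h.

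The most abundant of the 200 rows at 0 h had its wild-type minimum at 3 h. In the mutant it stood at 390, 314 and 373 CPM at 0 h, at 332, 268 and 278 at 0.5 h, at 176, 181 and 192 at 1 h, at 234, 175 and 154 at 3 h, and at 297, 251 and 275 at 24 h. The mutant libraries at 1 and 3 h lay below all those at 0 h, and the log2 fold was -0.74 at both times (SE 0.13, edgeR adjusted p = 2.2e-05 at 1 h and 1.59e-05 at 3 h). At 24 h it was -0.34 (SE 0.13, edgeR adjusted p = 0.0301), so the level was still lower than at 0 h. Wild-type libraries went from 351, 351 and 303 CPM at 0 h to 128, 154 and 125 after 3 h and 352, 314 and 297 after 24 h.

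The row most abundant at 0 h in the class with a minimum at 1 h fell in every mutant library. It went from 243, 244 and 232 CPM at 0 h to 127, 141 and 134 at 0.5 h, 105, 118 and 122 at 1 h, 103, 107 and 76.4 at 3 h, then 171, 165 and 172 after 24 h. The groups at 0.5, 1, 3 and 24 h lay below the group at 0 h without overlap. The log2 fold in the mutant was -0.71 after 0.5 h, -0.83 after 1 h and -1.14 after 3 h (SE 0.11 each, edgeR adjusted p = 3.27e-06, 1.7e-07 and 2.12e-10). The rise from 3 to 24 h was 0.69 (SE 0.11, edgeR adjusted p = 3.65e-06), and the row was still lower at 24 h than at 0 h, by a log2 fold of -0.45 (SE 0.11, edgeR adjusted p = 0.000759). The wild type went from 222, 218 and 231 CPM at 0 h to 76.7, 95.3 and 82.4 after 1 h and 171, 186 and 177 after 24 h.

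The row most abundant at 0 h in the class with a minimum at 0.5 h rose again step by step. In the mutant it was at 86.1, 72.9 and 66.6 CPM at 0 h, at 34.9, 32.2 and 36.4 at 0.5 h, at 39.2, 39.2 and 43.9 at 1 h, at 62.5, 53.5 and 51.5 at 3 h, and at 103, 101 and 96.8 at 24 h. The libraries at 0.5, 1 and 3 h lay below those at 0 h, and those at 24 h lay above all the others. The log2 fold against 0 h was -0.99 at 0.5 h (SE 0.11, edgeR adjusted p = 9.37e-09). The steps then were 0.34 from 0.5 to 1 h (SE 0.12, edgeR adjusted p = 0.0334), 0.41 from 1 to 3 h (SE 0.11, adjusted p = 0.00637) and 0.70 from 3 to 24 h (SE 0.11, adjusted p = 1.1e-06). At 24 h the row was above its starting level by a log2 fold of 0.47 (SE 0.10, edgeR adjusted p = 0.000334). The wild type went from 89.3, 84.3 and 94.0 CPM at 0 h to 31.1, 22.7 and 26.4 after 0.5 h and 102, 104 and 109 after 24 h.

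The row with the lowest mutant change at 24 h returned only in part there. It was at 29.9, 19.8 and 30.4 CPM in the mutant at 0 h, at 7.13, 4.14 and 1.16 at 3 h and at 9.5, 10.5 and 10.004 at 24 h. The libraries at 24 h lay above all those at 3 h and below all those at 0 h. Its log2 fold was -2.48 at 3 h (SE 0.32, edgeR adjusted p = 1.16e-07), 1.11 from 3 to 24 h (SE 0.36, adjusted p = 0.00956) and -1.37 at 24 h against 0 h (SE 0.27, adjusted p = 0.000104). Its wild-type levels were 28.1, 24.4 and 23.3 CPM at 0 h, then 5.21, 3.72 and 2.76 after 3 h and 21.0, 22.8 and 21.3 after 24 h.

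**Figure D5:**
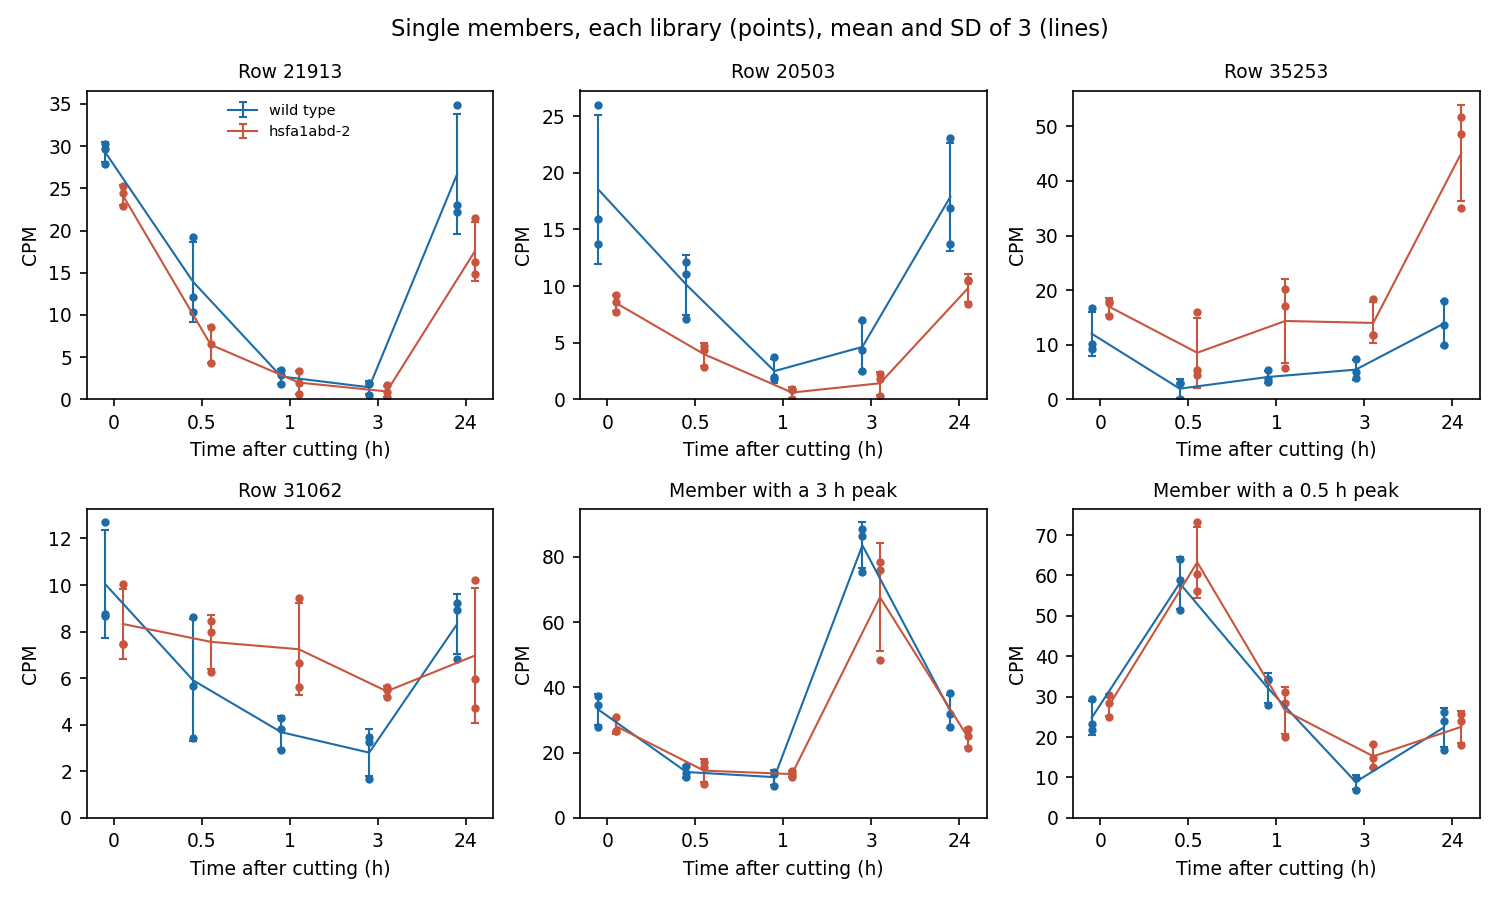
Abundance (CPM, linear axis) by time after cutting of single chosen rows in the wild type and hsfa1abd-2. Each point is 1 library, lines join the means of 3 and bars are SD. Row 21913 fell from between 22.9 and 25.3 CPM at 0 h to between 0.296 and 1.65 CPM at 3 h in the mutant, while row 35253 stood between 11.8 and 18.3 CPM at 3 h.

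A pair of rows, picked after their values were seen, met the thresholds of the choice by a course with a peak. The first was low at 0.5 and 1 h and high at 3 h. In the mutant it was at 30.9, 26.7 and 26.7 CPM at 0 h, at 15.7, 17.2 and 10.5 at 0.5 h, at 14.2, 13.5 and 12.5 at 1 h, at 78.4, 48.5 and 75.8 at 3 h and at 21.4, 27.3 and 25.1 at 24 h. Its libraries at 3 h lay above all others, with a log2 fold from 1 to 3 h of 2.29 (SE 0.19, edgeR adjusted p = 3.45e-11) and from 3 to 24 h of -1.60 (SE 0.17, adjusted p = 1.62e-09). The wild-type libraries were at 9.79, 14.1 and 13.5 CPM at 1 h and at 88.7, 75.4 and 86.4 at 3 h.

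The second was high at 0.5 h and low at 3 h. It stood at 30.4, 28.4 and 24.97 CPM in the mutant at 0 h, at 60.4, 73.1 and 56.2 at 0.5 h, at 19.9, 28.5 and 31.1 at 1 h and at 12.6, 18.3 and 14.8 at 3 h. The libraries at 0.5 h lay above all those at 0 h and those at 3 h below them. The log2 fold was 1.303 at 0.5 h (SE 0.17, edgeR adjusted p = 1.97e-07) and -0.69 at 3 h (SE 0.19, adjusted p = 0.00408). Wild-type libraries were at 58.8, 64.1 and 51.4 CPM at 0.5 h and at 9.88, 6.98 and 9.8 at 3 h.

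The 200 rows are the deeper part of a larger group defined by the same wild-type values. Of 1841 rows with at least 10 CPM and an early fall of at least 1, the 430 that returned to within 0.5 were 23.4% on the CPM scale. Only 198 rows met the thresholds with TMM-scaled CPM, so these numbers depend on the scaling. A further 1285 were at least 0.5 below their starting level at 24 h, and 126 were at least 0.5 above it. In the mutant at 3 h, falls were called in 162 of the 230 rows that met the thresholds beyond the 200 deepest, in 1019 of the 1285 that stayed low and in 116 of the 126 that overshot. Falls at 3 h were thus called in most rows of each of these groups, as in 170 of the 200. Of all tested rows 18.6% were called lower at 3 h, and 22.6% of those with at least 10 CPM at 0 h in the mutant.

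In the mutant at 24 h, too, the rows that had stayed low in the wild type lay lowest and those that had overshot lay highest. The median mutant change at 24 h was -0.16 for the 230 rows, -1.19 for the 1285, 0.53 for the 126 and -0.22 for the 200. Of the 1285 rows that stayed low 1132 were called lower at 24 h in the mutant and 0 higher. Of the 126 that overshot 1 was called lower and 84 higher, and of the 230 rows 47 were called lower and 14 higher. Of all tested rows 21.3% were called lower and 26.6% higher, so the 47 (20.4%) were near the background. The share within 0.5 of the starting level in the mutant was 80.0% of the 230, 12.8% of the 1285, 46.8% of the 126 and 77.0% of the 200. Rises from 3 to 24 h were called in 140 of the 230, 149 of the 1285 and 123 of the 126, where 24.9% of tested rows rose. The 149 (11.6%) were below that share. No test of the difference between these groups of rows was made.

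Between the genotypes, levels were compared at each time. These contrasts include the wild-type libraries that chose the rows, so the counts are given beside the background and nothing is read from them. At 0 h 2 rows were called lower in the mutant than in the wild type and 0 higher, where 1.45% and 0.421% of tested rows were. With edgeR at an unadjusted p under 0.05, 16 were lower and 5 higher at 0 h, for which no share of all tested rows was counted. At 0.5 h 5 were lower and 2 higher, where the background was 2.13% and 1.54%. At 1 h 3 were lower and 11 higher, where it was 2.97% and 3.06%, and at 3 h 1 was lower and 3 higher, where it was 0.955% and 1.04%.

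At 24 h 55 of the 200 rows were called lower in hsfa1abd-2 than in the wild type and 2 higher, where 10.3% and 10.6% of tested rows were. The log2 folds of the 55 lay between -1.41 and -0.31, with a median of -0.66. Of these 55, 2 were also called lower at 0 h, 26 were called lower at 24 h than at 0 h within the mutant, and 40 had a called rise from 3 to 24 h. Without replicate 2 or 3 of the mutant at 24 h the number was 32 or 30, and without replicate 1 or 2 of the wild type at 24 h it was 33 in each case. In the same contrast 31 of the 230 rows beyond the 200 were lower and 4 higher, 86 of the 1285 that stayed low were lower and 178 higher, and 51 of the 126 that overshot were lower and 0 higher. The wild-type level at 24 h helped to define each of these groups of rows, so these counts are a description. What the differences between the groups come from was not tested.

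The change from 0 h in the mutant was also set against that in the wild type. The wild-type changes chose the rows, and the choice favours a shallower fall and a lower level at 24 h in the mutant, so these counts too are a description from which nothing is read. At 0.5 and 3 h edgeR called 0 rows in either direction, where the background was 0.0810% lower and 0.00% higher at 0.5 h and 0.221% and 0.259% at 3 h. At an unadjusted p under 0.05 there were 8 lower and 8 higher at 0.5 h, and 4 lower and 16 higher at 3 h. At 1 h 1 row fell less in the mutant, where 0.0162% of tested rows had a higher change there, and 0 fell more, where 0.0432% did. At an unadjusted p under 0.05 there were 2 with a lower change in the mutant and 19 with a higher one. The row called at 1 h went from 51.5 ± 4.27 to 12.2 ± 2.46 CPM in the wild type and from 43.4 ± 5.57 to 25.8 ± 4.48 CPM in the mutant (SD, n = 3 each). At 24 h 4 rows had a lower change in the mutant and 0 a higher one, where the background was 1.45% and 1.71%. At an unadjusted p under 0.05 there were 37 with a lower change and 2 with a higher one. For the unadjusted counts of this contrast no share of all tested rows was counted, and the choice of rows favours their direction at 1, 3 and 24 h. The number 4 was 0 without replicate 2 or 3 of the mutant or replicate 2 of the wild type at 24 h. It was 1 without replicate 1 of the mutant at 0 h, replicate 2 or 3 of the wild type at 0 h or replicate 1 of the wild type at 24 h, and 2 without replicate 2 or 3 of the mutant at 0 h.

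The edges of the choice were not gaps in the data. The lowest starting level among the rows that met the thresholds was 10.04 CPM, and the nearest row excluded by it had 9.997 CPM. The fall nearest to the threshold was -1.002 among the rows that met it and -0.9999 among those that did not. The size of the change at 24 h was 0.4993 just inside and 0.5008 just outside the limit. The row ranked 200 had a lowest change of -1.266 and the next one -1.264.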

How the data were processed

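The deposited file is 1 table of whole-number read counts that were not normalized, with a column for each library. The tools fastp and STAR and the TAIR10 build are named, per the submitters' processing notes. RNA was isolated with a Qiagen RNeasy kit and libraries were made with a Kapa stranded mRNA kit, per the labels' protocols. Their versions, the annotation, the counting step and its use of strand are not given in the sources available, so reads of paralogs, overlapping genes and antisense partners may be split or merged. Rows were used without names because the table pairs none with them. In 10278 rows every library was at 0.

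The 200 rows, the groups of similar rows and the tests were chosen with earlier results of these data known. CPM used column sums and a pseudocount of 1. Counts were tested with edgeR 4.0.16 (limma 3.58.1, R 4.3.3), with filterByExpr by group (minimum count 10, minimum total 15), TMM, and 1 robust quasi-likelihood fit of all 30 libraries with 10 groups. This tested 18526 rows with 99.8% of the counts, all 200 chosen rows among them, with a biological coefficient of variation of 13.1% and 20 residual degrees of freedom. Each contrast was adjusted by Benjamini-Hochberg over all tested rows, and 0.05 was the limit for a call. SEs are approximate and were taken as the absolute log2 fold over the square root of F. Replicates are called biological in the labels, which do not say whether they came from separate sowings or days, so p-values measure the spread between these samples.

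Numbered rows were the 2 with the lowest mutant fold at 1 or 3 h (called, libraries not overlapping those at 0 h) and the 2 whose lower fold was highest. Other rows were given by role (deepest, most abundant overall and per class, lowest and highest mutant change at 24 h). Alternatives were DESeq2 1.42.0, RLE scaling, no filter, a pseudocount of 0.5, TMM-scaled CPM, a replicate block and leaving out single libraries. The main fit had no replicate block. Whether replicate numbers pair the samples was checked in the mutant libraries only. Figures were drawn with matplotlib 3.10.9.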

Additional observations from a re-analysis of the deposited data

Results flagged for a closer look

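The change from 0 h differed between the genotypes past the threshold of edgeR at 1 h in 1 of the 200 rows and at 24 h in 4. At 1 h the change was higher in the mutant, where 0.0162% of tested rows had such a call. At 24 h it was lower in the mutant, and the 4 rows (2.0%) were near the 1.45% of tested rows. The wild-type changes in this contrast are the values that chose the rows, and that choice favours a shallower fall and a lower level at 24 h in hsfa1abd-2. The values are therefore given as a description with no p-value. The row at 1 h went from 51.5 ± 4.27 to 12.2 ± 2.46 CPM in the wild type and from 43.4 ± 5.57 to 25.8 ± 4.48 CPM in the mutant (SD, n = 3 each). On the log2 scale it changed by -1.85 in the wild type and by -0.51 in the mutant.

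Of the 4 rows at 24 h, the first went from 10.96 ± 0.155 to 9.75 ± 1.15 CPM in the wild type and from 13.3 ± 0.650 to 5.76 ± 0.343 CPM in the mutant (SD, n = 3 each), a difference in log2 change of -1.11. The second went from 130 ± 9.04 to 150 ± 16.4 CPM in the wild type and from 142 ± 24.9 to 106 ± 5.73 CPM in the mutant, a difference of -0.70. The third went from 23.1 ± 2.96 to 32.3 ± 1.0995 CPM in the wild type and from 28.5 ± 1.44 to 22.3 ± 0.924 CPM in the mutant, a difference of -0.91. The last went from 40.7 ± 4.99 to 53.3 ± 4.53 CPM in the wild type and from 36.7 ± 1.73 to 26.6 ± 6.48 CPM in the mutant, a difference of -0.93. In 3 of these 4 rows the wild-type mean at 24 h was above that at 0 h and the mutant mean below it. With single libraries of the compared groups left out, the number of such rows at 24 h ran from 0 to 5.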

How the results depend on the processing

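Of 300 alternative values, 265 kept their direction and stayed within 1.5 times a count, within 1 SD of a median or on the same side of the test, and 35 moved further. No value that passed a test reversed, but the fold of row 35253 at 3 h in the mutant, which passed none, went from -0.09 to 0.01 without replicate 1 of the mutant at 3 h. Rows called higher at 24 h in hsfa1abd-2 (13) numbered 6 with no filter and 8 with DESeq2, and 5 to 10 with a library left out. Rows lower in hsfa1abd-2 than in the wild type at 24 h (55) numbered 30 to 59 with a library left out. The 2 rows higher there numbered 1 with no filter, 1 with DESeq2, and 1 to 2 with a library left out. Rows with a lower change in the mutant at 24 h (4) numbered 8 with DESeq2 and 6 with RLE scaling, and 0 to 5 with a library left out. With TMM-scaled CPM 198 rows met the thresholds, 165 of them among the 200, and the mutant medians were -0.56, -0.86 and -1.04 at 0.5, 1 and 3 h. With a library left out these medians ran from -0.74 to -0.64, from -1.09 to -0.99 and from -1.30 to -1.19, and at 24 h from -0.25 to -0.16. Leaving out a wild-type library kept 163 to 197 of the 200 rows, with 415 to 467 rows meeting the thresholds. Mutant falls numbered 93 to 115 at 0.5 h, 146 to 159 at 1 h and 162 to 167 at 3 h when single mutant libraries were left out. Same-numbered mutant samples of different times did not deviate together (median correlation 0.0128 over 30 pairs, range -0.379 to 0.184). Pairs with unlike numbers had a median of -0.0139 over 60 pairs, range -0.223 to 0.398. Pairing among the wild-type libraries or between genotypes was not checked. With the replicate number as a block, falls were called in 112, 162, 169 and 47 rows and rises from 3 to 24 h in 153, and no count moved by more than 1.5 times.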
